A study of Mus musculus with 2 samples.

Results

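Sap130 binding inside protein-coding genes, more than 1000 and up to 5000 bp from the nearest boundary of any protein-coding gene, was described in hearts of mouse embryos of stage E12.5. The list of peak summits came from 1 chromatin immunoprecipitation (ChIP) library made from C57BL/6 hearts with a rabbit antibody against Sap130 (Bethyl A302-491A), with peaks called by the authors over 1 library of input DNA that had no antibody. The study set out to find where Sap130 binds in the developing heart. A summit is the single base where a peak is highest, and a gene boundary is the first or last base of a gene in the RefSeq annotation of build GRCm38.p6. Of 14886 summits, 14881 lay on 20 nuclear chromosomes, and 2020 of these (13.6%, Wilson 95% interval 13.0 to 14.1) met the rule and are called inner summits here. They lay in 1669 host genes, which are 7.66% of the 21779 protein-coding genes used.

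Sap130 is a subunit of the Sin3 complex, a corepressor in which the scaffold proteins Sin3a and Sin3b hold the histone deacetylases Hdac1 and Hdac2 and are brought to DNA by sequence-specific factors. Deacetylation of histones at promoters is linked to lower transcription, and mutation of Sap130 together with a protocadherin gene has been linked to hypoplastic left heart in mice. Many mammalian genes have several transcript starts, and starts rich in the dinucleotide CpG are a common class of promoter. A start inside the annotated gene can therefore lie far from the outermost boundary.

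The hearts hold muscle, endocardial, epicardial, valve and blood cells, and the cells behind a summit cannot be told apart in this list. Summits give no expression, so the tissue was not checked against its markers. The specificity of the antibody was not tested here. The score of a summit is the −log10 of a p or q value that the authors deposited. It ranks summits within this list and is not a fold over input. Sequencing depth is unknown for both, and the input has no values of its own here. No replicate error exists for a single ChIP library, no test between conditions was possible, and all intervals are 95% intervals for counting error only, with summits that are not independent replicates.

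Of the inner summits, 1623 lay in a gene with at least 1 listed transcript start in the RefSeq promoter table. Among them 780 (48.1%, interval 45.6 to 50.5) lay within 500 bp of such a start, and 776 of the 780 starts belonged to the host gene itself. The sequences printed here set a start that had a summit beside a start of the same gene that had none. Each is the 120 bases before a transcript start, read 5′ to 3′ on the strand of the gene from RefSeq GRCm38.p6, with CpG dinucleotides in capitals. The genes were chosen after their values were seen, as inner starts with high-scoring summits and no summit at the outer start. Sinhcaf was added as a further such gene from the list of Sin3 complex genes and partners. No genome was used, so bases under the summits themselves, which mostly lay downstream of these stretches, are not shown.

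Tmem248 encodes a transmembrane protein. Its inner start, 2591 bp inside the gene, had a summit of score 154 at 201 bp downstream, and its outer start had none within 500 bp. The stretches are chr5:130222215-130222334 and chr5:130219624-130219743, both on the plus strand, and they hold 17 and 2 CpG.
Tmem248 inner start: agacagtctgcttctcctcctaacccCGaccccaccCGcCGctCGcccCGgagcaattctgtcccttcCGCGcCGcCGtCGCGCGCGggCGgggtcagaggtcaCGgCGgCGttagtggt
Tmem248 outer start: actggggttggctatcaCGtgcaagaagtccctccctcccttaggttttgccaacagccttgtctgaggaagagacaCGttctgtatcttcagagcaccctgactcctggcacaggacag

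Nadk encodes NAD kinase, which makes NADP. Its inner start, 1434 bp inside, had a summit of score 137. The stretches are chr4:155563695-155563814 and chr4:155562261-155562380, both on the plus strand, with 12 and 3 CpG.
Nadk inner start: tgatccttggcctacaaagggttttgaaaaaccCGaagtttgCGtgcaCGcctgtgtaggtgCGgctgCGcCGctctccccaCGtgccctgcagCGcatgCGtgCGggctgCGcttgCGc
Nadk outer start: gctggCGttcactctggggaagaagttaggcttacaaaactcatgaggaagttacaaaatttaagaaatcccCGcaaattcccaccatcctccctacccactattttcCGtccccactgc

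Sin3a encodes the scaffold of the complex that holds Sap130. Its inner start, 4385 bp inside, had a summit of score 128 at 306 bp downstream. The stretches are chr9:57076256-57076375 and chr9:57071920-57072039, both on the plus strand, with 11 and 6 CpG.
Sin3a inner start: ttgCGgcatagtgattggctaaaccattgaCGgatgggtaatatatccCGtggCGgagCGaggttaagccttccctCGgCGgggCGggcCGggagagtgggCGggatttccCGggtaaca
Sin3a outer start: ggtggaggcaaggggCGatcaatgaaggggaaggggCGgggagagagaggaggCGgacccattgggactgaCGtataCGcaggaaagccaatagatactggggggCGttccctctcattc

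Rpl22 encodes a protein of the large ribosomal subunit. Its inner start, 1290 bp inside, had a summit of score 119, and its stretches differed little in CpG. They are chr4:152325606-152325725 and chr4:152324316-152324435, both on the plus strand, with 6 and 5 CpG.
Rpl22 inner start: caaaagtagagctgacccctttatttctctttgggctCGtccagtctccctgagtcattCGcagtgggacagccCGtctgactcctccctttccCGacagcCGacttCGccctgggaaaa
Rpl22 outer start: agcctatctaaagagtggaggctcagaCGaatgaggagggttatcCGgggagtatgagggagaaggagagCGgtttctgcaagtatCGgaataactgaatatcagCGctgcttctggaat

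Arih2 encodes a ubiquitin ligase. Its inner start, 4273 bp inside, had a summit of score 116. The stretches are chr9:108649409-108649528 and chr9:108653682-108653801, both on the minus strand, with 9 and 1 CpG.
Arih2 inner start: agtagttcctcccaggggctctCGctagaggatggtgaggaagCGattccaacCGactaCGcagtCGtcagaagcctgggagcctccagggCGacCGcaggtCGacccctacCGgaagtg
Arih2 outer start: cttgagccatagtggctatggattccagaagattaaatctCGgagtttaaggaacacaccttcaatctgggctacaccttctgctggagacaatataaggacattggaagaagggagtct

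Sinhcaf encodes another subunit of the Sin3 complex. Its inner start, 1644 bp inside, had a summit of score 72.7 at 151 bp downstream, and its outer start had none although it was as rich in CpG. The stretches are chr6:148944827-148944946 and chr6:148946471-148946590, both on the minus strand, with 15 and 18 CpG.
Sinhcaf inner start: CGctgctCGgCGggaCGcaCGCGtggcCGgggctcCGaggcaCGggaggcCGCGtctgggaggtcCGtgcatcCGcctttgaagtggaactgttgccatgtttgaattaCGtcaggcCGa
Sinhcaf outer start: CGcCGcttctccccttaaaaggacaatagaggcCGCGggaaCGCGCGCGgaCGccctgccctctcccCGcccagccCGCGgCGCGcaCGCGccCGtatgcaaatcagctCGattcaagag

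Inner summits thinned out steeply with distance from the boundary. Per megabase of gene body at the given distance, there were 36.9 summits between 1000 and 1500 bp, 25.2 between 1500 and 2000 bp, 14.8 between 2000 and 2500 bp and 5.72 between 4500 and 5000 bp. The first 500 bp inside genes held 353 per megabase, and the next 500 bp held 78.6. The median inner summit lay 1763.5 bp from the boundary. Distance chose these summits, so their number by distance is a description. Beyond the outer limit the density was 5.01 summits per megabase between 5000 and 5500 bp, 3.54 in the next 500 bp and 1.45 over all gene sequence deeper than 5000 bp. The nearest boundary belonged to the host gene for 1914 inner summits (94.8%), and 1986 (98.3%) lay in 1 protein-coding gene only. Just inside the lower limit stood summits in Smad1, a transducer of bone morphogenetic protein signals, at 1001 bp with score 34.4, and in Kansl1l at 1002 bp with score 34.6. Just outside it stood Capza2 at 1000 bp with score 4.06 and R3hcc1l at 999 bp with score 29.3. At the upper limit, Prr14 at 4993 bp (score 46.7) and Per1 at 4991 bp (score 23.7) were the last inside, and Zfp65 at 5002 bp (score 16.1) and Smad6 at 5020 bp (score 5.202) were the first outside.

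**Figure D1:**
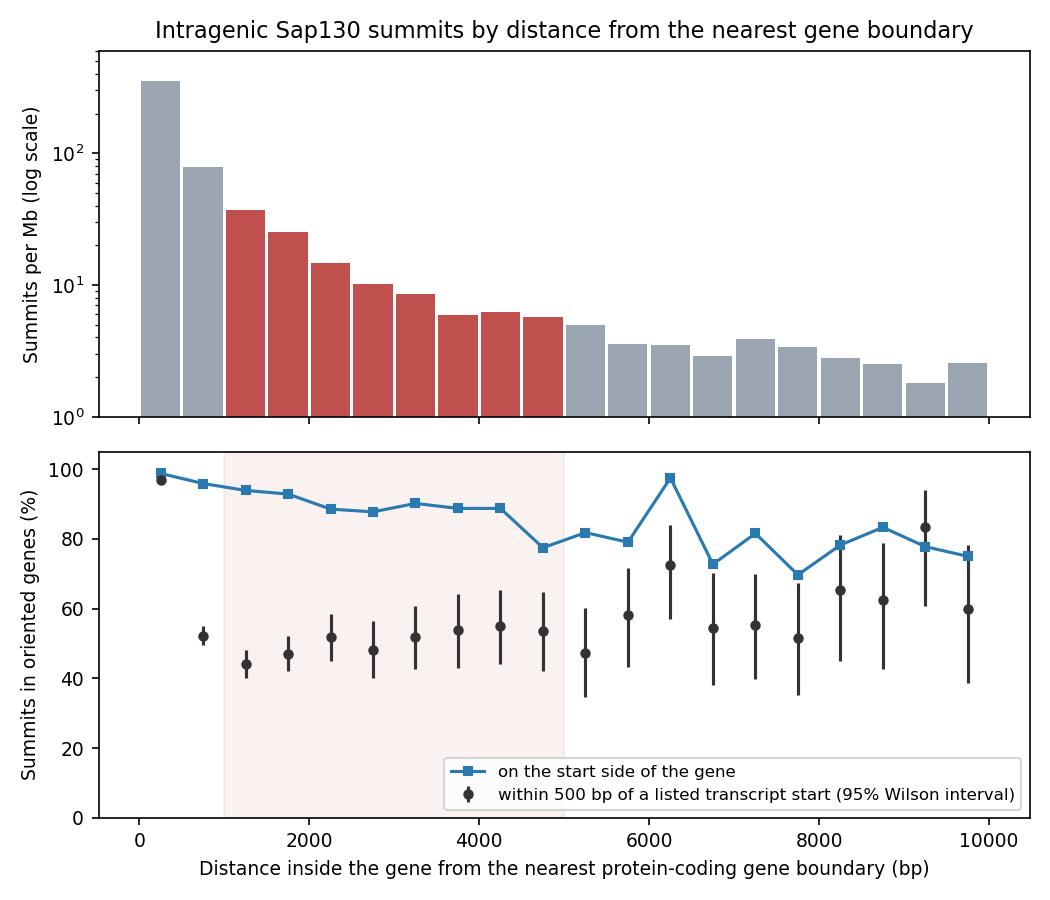
Upper panel, Sap130 summits inside protein-coding genes per megabase of gene body (log axis) in 500 bp bins of distance from the nearest boundary, with inner summits in red. Lower panel, share of summits in genes with a listed start that lay on the start side (blue squares) or within 500 bp of a listed start (black points, Wilson 95% intervals). Density falls from 36.9 to 5.72 summits per megabase over the shaded range, while the share at a start stays between 44.2% and 55.0%.

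Inner summits lay mostly near the beginning of their genes. Of the 1623 in a gene with a listed start, 1477 (91.0%, interval 89.5 to 92.3) were closer to the start than to the end, against 667 of 1028 (64.9%, interval 61.9 to 67.7) among summits more than 5000 bp inside and 7652 of 7783 (98.3%) among those up to 1000 bp inside. The 146 on the end side had a median score of 14.7 (interval 10.4 to 18.7), below the 21.7 (interval 19.7 to 23.8) of those on the start side. Even on the end side, 32 (21.9%, interval 16.0 to 29.3) lay at a listed start. Rpl19, a protein of the large ribosomal subunit, had a summit of score 158 that lay 3336 bp from its end and 233 bp downstream of a transcript start 4921 bp inside the gene. Mien1 had one of score 112 that lay 1128 bp from its end and 152 bp downstream of a start 19242 bp inside.

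At the listed starts, inner summits lay mostly a short way downstream. Their median was 180.5 bp downstream of the start (interval 173 to 190), with quartiles of 102 and 252 bp. The median was 174 bp (interval 163 to 184) for summits deeper than 5000 bp. Of the 780 inner summits at a start, 647 (82.9%, interval 80.1 to 85.4) lay downstream. The band from 100 to 300 bp downstream held 462 of the 780 (59.2%, interval 55.7 to 62.6), against 58.4% (interval 54.2 to 62.5) for deeper summits. Summits inside genes near a boundary had a median of 184 bp, but those upstream of an outermost start lie outside the gene and are left out by construction, so their spread is not compared.

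**Figure D2:**
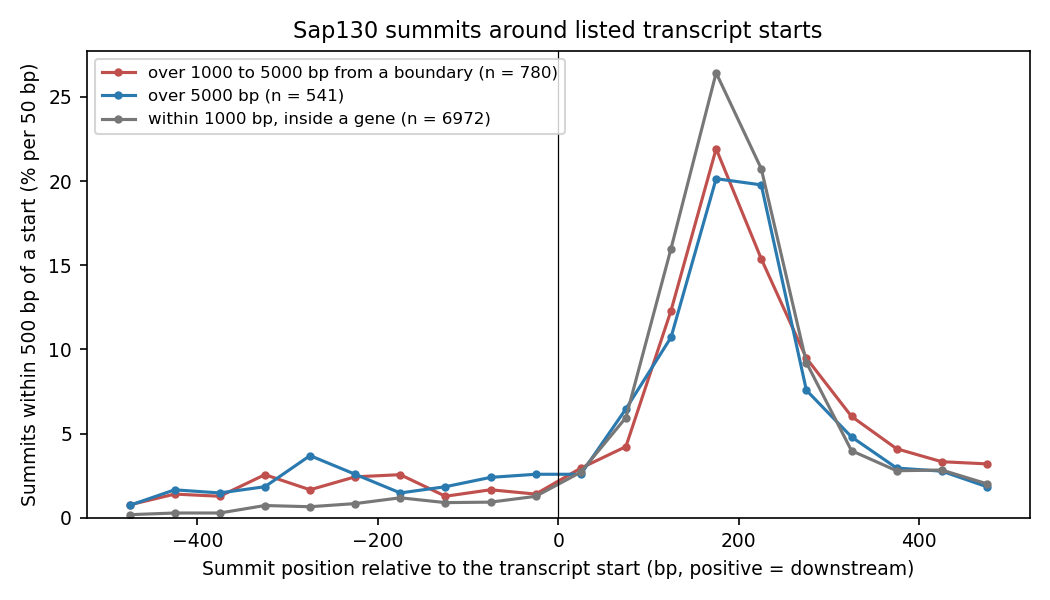
Position of summits relative to the nearest listed transcript start (bp, positive is downstream), as percent of summits within 500 bp of a start in each 50 bp bin. Inner summits (red, n = 780), deeper summits (blue, n = 541) and summits inside genes within 1000 bp of a boundary (grey, n = 6972) all peak in the bin from 150 to 200 bp downstream. The grey class leaves out, by construction, summits upstream of an outermost start.

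Inner summits scored lower than those at gene boundaries and close to those deeper in genes. Their median score was 20.1 (interval 18.7 to 21.5; quartiles 8.78 and 46.3), against 18.9 (interval 17.2 to 20.3) for the 1241 deeper summits and 40.4 (interval 39.4 to 41.3) for the 10937 summits within 1000 bp of a boundary. At or above the median of all nuclear summits, which 50.0% reach by construction, stood 713 inner summits (35.3%, interval 33.2 to 37.4), against 390 deeper summits (31.4%) and 6222 near a boundary (56.9%). The scores of inner summits reached 230. Among the 500 highest of the list stood 39 inner summits (1.93%, interval 1.42 to 2.63). This compares with 3.36% of all nuclear summits, 3.96% of those near a boundary and 1.45% of deeper ones. The median score did not follow distance within the range, with 19.9 in the first 500 bp bin, 17.5 in the third, 24.8 in the seventh and 19.6 in the last.

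Inner summits at a transcript start scored higher than the others. The 780 at a listed start had a median score of 36.7 (interval 33.9 to 40.3; quartiles 17.6 and 65.8), against 11.3 (interval 10.3 to 12.4; quartiles 6.84 and 26.0) for the 843 that were not. At or above the list median stood 426 (54.6%, interval 51.1 to 58.1) of those at a start and 168 (19.9%, interval 17.4 to 22.8) of the others. At or above the upper quartile of all scores stood 199 (25.5%) at a start and 68 (8.07%) of the others. The same split among deeper summits gave medians of 28.7 at a start and 12.48 away from one.

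Many inner summits lay beside a stronger summit closer to the boundary. A companion, meaning another summit within 1000 bp of the same host boundary, was found for 828 (41.0%, interval 38.9 to 43.1). The companion lay a median of 280 bp inside the boundary and outscored the inner summit in 591 of the 828 (71.4%, interval 68.2 to 74.4), with a median companion score of 35.9 and a median ratio of 2.15. Inner summits with a companion had a median score of 12.48 (interval 11.3 to 14.0), against 27.2 (interval 24.7 to 29.8) for the 1192 without. A further measure was whether the gene held any other summit, and 753 inner summits (37.3%) were the only one in their host, against 28.9% of deeper summits. Another summit lay within 2000 bp of 54.2% of inner summits, against 36.7% of deeper ones and 33.5% of those near a boundary. The distance rule itself places inner summits close to where most summits are, so these neighbour shares are a description.

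Start and companion together divided the 1623 inner summits into classes with different scores. With a start and no companion stood 615 (37.9%), with a median score of 39.2 (interval 35.3 to 43.0). Both a start and a companion had 165 (10.2%), with a median of 32.0. Neither had 352 (21.7%), with a median of 15.004, and a companion but no start had 491 (30.3%), with a median of 9.75 (interval 9.004 to 11.1). A start was present for 615 of 967 inner summits without a companion (63.6%, interval 60.5 to 66.6) and for 165 of 656 with one (25.2%, interval 22.0 to 28.6). The inner summits of the heart genes Meis1 and Tbx20, described among their list, all belong to the class with a companion and no start.

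**Figure D3:**
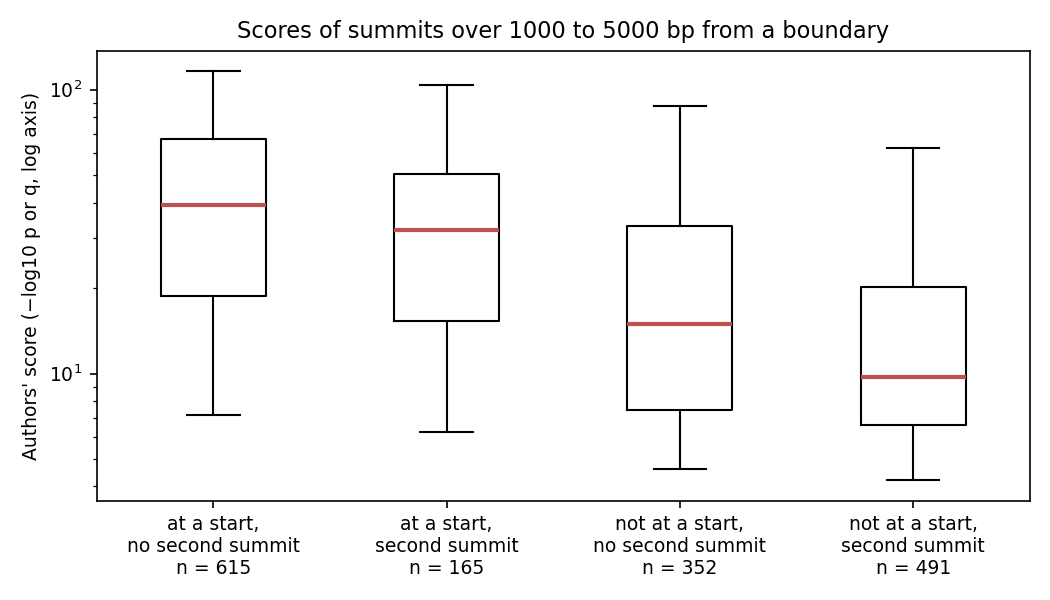
Score (−log10 p or q as deposited, log axis) of inner summits in genes with a listed start, divided by whether a start lay within 500 bp and whether a second summit lay within 1000 bp of the same boundary. Boxes give the quartiles and median, whiskers the 5th and 95th percentiles; medians are 39.2, 32.0, 15.004 and 9.75 from left to right.

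Inner summits of highest score included many that were alone in their gene. Npm1, a nucleolar histone chaperone, had the highest, at position 33162481 of chromosome 11, 1661 bp inside, with score 230; the promoter table lists no start for it. Ino80, the ATPase of a chromatin remodeller, followed with 217 and a companion of 45.9. Wdr62, a spindle pole protein, had 207 at 182 bp downstream of an inner start. Synj1, a phosphoinositide phosphatase of membrane trafficking, had 199 at 125 bp upstream of one. Larp4, an RNA-binding protein that stabilises messenger RNAs, had 198, Mtfr2, a mitochondrial fission regulator, had 190 and Rcc1l, a mitochondrial protein, had 186. The next were Syncrip, an RNA-binding hnRNP (175), Noc2l, a nucleolar inhibitor of histone acetylation (172), the deubiquitinase Usp4 (167), the GTPase Gtpbp1 (164), the coenzyme Q enzyme Pdss1 (163), the Y-box protein Ybx1 (163), the transcription factor Tfap4 (161) and Rangap1, which acts in nuclear transport (160). Wdr62, Larp4, Mtfr2, Rcc1l, Usp4, Gtpbp1, Pdss1 and Rangap1 had no other summit in the gene and lay within 500 bp of a listed start, which for Gtpbp1 and Rangap1 was 895 and 879 bp inside.

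The stretches before the inner starts of Wdr62, Synj1, Larp4 and Mtfr2 are shown because their summits scored highest among inner summits at a listed start. Capitals mark matches to the motifs searched, on either strand. They are chr7:30280411-30280530 on the minus strand, chr16:91011309-91011428 on the minus strand, chr15:99972660-99972779 on the plus strand and chr10:20347699-20347818 on the plus strand. The Wdr62 stretch has matches to E2F, ETS, CCAAT, GC box and GATA letters, the Synj1 stretch has none, and the Larp4 stretch has matches to ETS and GC box letters. The Mtfr2 stretch has matches to CCAAT only.
Wdr62: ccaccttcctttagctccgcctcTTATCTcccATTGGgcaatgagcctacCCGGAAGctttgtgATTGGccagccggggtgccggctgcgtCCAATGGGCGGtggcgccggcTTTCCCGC
Synj1: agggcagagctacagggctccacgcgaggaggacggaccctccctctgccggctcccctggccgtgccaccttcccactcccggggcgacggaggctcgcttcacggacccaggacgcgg
Larp4: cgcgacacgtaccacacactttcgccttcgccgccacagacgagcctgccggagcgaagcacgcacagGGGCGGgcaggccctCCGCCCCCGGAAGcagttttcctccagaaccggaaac
Mtfr2: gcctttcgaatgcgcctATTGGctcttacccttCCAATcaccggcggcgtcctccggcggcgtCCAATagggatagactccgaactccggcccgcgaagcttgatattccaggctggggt

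Counted from the starts rather than from the summits, the share with a summit differed with how far inside the gene they lay. Of 1692 listed starts lying 1000 to 5000 bp inside their own gene, 783 (46.3%, interval 43.9 to 48.7) had a summit within 500 bp, against 7849 of 16151 (48.6%, interval 47.8 to 49.4) at starts within 500 bp of the gene's outer start boundary. Starts 500 to 1000 bp inside had one in 623 of 1027 cases (60.7%, interval 57.6 to 63.6). Starts deeper than 5000 bp had one in 651 of 2393 cases (27.2%, interval 25.5 to 29.0). The median score at an inner start with a summit was 40.1, against 49.0 at an outer start with one. The RefSeq windows around these starts, from 250 bases before to 50 after, differed in base composition. Inner starts with a summit had a median GC content of 64.0%, 24 CpG and an observed over expected CpG ratio of 0.812, and inner starts without one had 52.7%, 6 CpG and a ratio of 0.295. Of the inner starts with a ratio of at least 0.6, 648 of 824 (78.6%, interval 75.7 to 81.3) had a summit, against 135 of 868 (15.6%, interval 13.3 to 18.1) below it. Outer starts divided at the same ratio gave 85.0% and 13.0%. Starts 500 to 1000 bp inside gave 79.2% and 23.2%, and those deeper than 5000 bp gave 76.0% and 9.26%. Of the starts deeper than 5000 bp, 643 had a ratio of at least 0.6 and 1750 a lower one. The part of base composition in the shares by depth was not tested.

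The 419 genes that list both an outer start and an inner start at least 1000 bp from it allow a comparison within genes. A summit stood at the inner start only in 89 genes (21.2%, interval 17.6 to 25.4) and at both in 46 (11.0%). A summit stood at the outer start only in 120 (28.6%) and at neither in 164 (39.1%). The summit nearest the inner start met the rule for inner summits in 73 of the 89 genes and 40 of the 46. In the 89 genes with a summit at the inner start only, the inner window held a median of 19 CpG and the outer window 6, and the inner window held more in 78 genes (87.6%, interval 79.2 to 93.0). In the 120 genes with a summit at the outer start only, the inner window held a median of 5 CpG and the outer window 21, and the inner window held more in 12 genes (interval of the share 5.81% to 16.7%). Where both starts had a summit the medians were 22.5 and 25 CpG, and where neither had one they were 4 and 5. Across the 300-base windows, Tmem248 had 35 CpG at the inner start with a summit and 2 at the outer start, Nadk had 24 and 4, Arih2 had 26 and 3, and Sin3a had 25 and 14. Rpl22 had 15 and 8, Prkar1a, a regulatory subunit of protein kinase A, had 15 and 3 with 104, and Fth1, the ferritin heavy chain, had 27 and 4 with 81.2. Sinhcaf departed from this, with 43 CpG in each window.

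**Figure D4:**
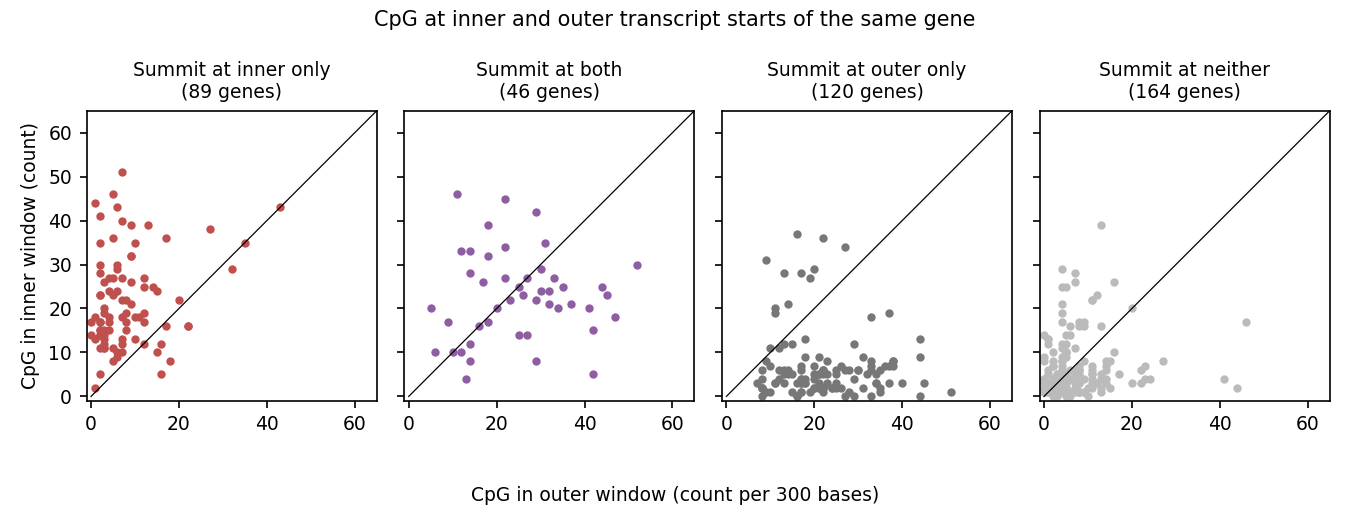
CpG count in the 300-base window of the inner start (vertical axis) and the outer start (horizontal axis) of the same gene, 1 point per gene, in 4 panels by where a summit lay within 500 bp; the line marks equal counts. Genes with a summit at the inner start only lie above the line in 78 of 89 cases, and genes with one at the outer start only in 12 of 120.

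Motif letters in the windows of starts 1000 to 5000 bp inside followed the same division. The GC box of Sp and Klf factors, GGGCGG, was in 70.4% (interval 67.1 to 73.5) of the 783 windows with a summit, in 27.6% (interval 24.8 to 30.6) of the 909 without, and in 46.2% of all 21263 listed windows. The ETS letters CCGGAAG were in 19.0%, 4.40% and 11.6% of the same sets, the NRF1 letters GCATGCGC in 5.87%, 1.21% and 3.52%, and the Myc and Mxd E-box CACGTG in 10.6%, 5.28% and 7.84%. Mxd proteins and Mxi1 bind E-boxes with Max and recruit Sin3. The E2F letters TTTCCCGC were in 21 inner windows with a summit (2.68%, interval 1.76 to 4.07) and 4 without (0.440%, interval 0.171 to 1.13). The E2F letters TTTGGCGC were in 8 (1.02%, interval 0.519 to 2.00) and 1 (0.110%, interval 0.0194 to 0.620), and these intervals overlap. All listed windows held them in 1.41% and 0.635%. The YY1 letters AAGATGGC were in 4.34% and 1.43%, against 3.05% of all listed windows. The cAMP response element TGACGTCA was in 2.30% and 0.880%, against 2.23% of all listed windows. Its share in inner windows with a summit was thus near that over all windows. Its core TGACG, which lies inside it, was in 33.6% and 14.6%, against 23.6% of all listed windows. AT-rich letters ran the other way. The TATA box TATAAA was in 4.85% and 13.6%, the GATA letters AGATAA in 5.24% and 14.7%, and the forkhead letters TAAACA in 5.87% and 13.4%. Over all listed windows these 3 shares were 12.6%, 9.65% and 11.5%. The CCAAT box was in 31.8% and 36.4%, against 38.2% of all listed windows. All listed starts with a summit gave 72.9% for the GC box, 20.9% for ETS, 11.1% for the E-box and 5.17% for the TATA box. GC content differed between these windows as given, and its part in the motif shares was not tested.

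Genes of the Sin3 complex and its partners held 13 inner summits in 8 of 31 listed genes (25.8%, interval 13.7 to 43.2, against 7.66% of all protein-coding genes), with a median score of 28.0, against 20.1 over all inner summits. Sin3a held 4, with scores of 128, 55.8, 28.0 and 17.2 at 4691, 1312, 3583 and 1885 bp from its boundary, and no summit within 1000 bp of either boundary. Arid4a, a subunit that binds the retinoblastoma protein, had 130 beside a companion of 148. Sinhcaf had 72.7 as the only summit in the gene. Mxi1 had 70.8 and 16.2 beside a companion of 48.9, and Phf12, a PHD finger subunit, had 58.3 and 5.27 beside one of 138. Ing1, which reads methylated histone H3, had 26.4 at 178 bp downstream of an inner start, beside a companion of 126. The histone demethylase Kdm5a had 6.35 beside 104, and Ogt, the enzyme that adds N-acetylglucosamine to proteins, had 4.51 beside 31.1. Sap130 itself, Sin3b, Hdac1 and Hdac2 held no inner summit and each had a summit within 1000 bp of a boundary, as did 28 of the 31 listed genes (90.3%) and 48.4% of all protein-coding genes.

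Heart transcription factors held 37 inner summits in 20 of 46 listed genes (43.5%, interval 30.2 to 57.8), the highest share of the 16 lists, with a median score of 14.7. A companion accompanied 23 of the 37 (62.2%, against 41.0% of all inner summits). At or above the median of all nuclear summits stood 6 of the 37, against 35.3% of all inner summits. Of the 20 host genes, 17 also had a summit within 1000 bp of a boundary, against 797 of all 1669 hosts, and 33 of the 46 listed genes (71.7%) had one, against 48.4% of all protein-coding genes. The share of hosts was not the highest once weak summits were left out. Among summits at or above the median score the list had 4 hosts of 46, and all protein-coding genes had 679 of 21779. At this cut Sin3 genes had 5 of 31, histone methylation genes 9 of 55 and splicing genes 9 of 58. Srf, which drives contractile and growth genes, had 91.1 at 163 bp downstream of an inner start and 12.7. Sox11 had 54.3, 35.6 and 5.74 beside a companion of 50.1, and Nfatc1, a factor of endocardial and valve development, had 52.7. Meis2 had 33.9, 33.7, 14.6 and 7.89, and Meis1 had 13.8, 10.6, 7.55 and 6.91 beside a companion of 23.4. Gata5 had 32.8 and 8.33, and Gata6 had 18.4. Sox4 had 30.4 on its end side, Irx2 had 29.7, 14.7, 7.92 and 3.16, and Nkx2-5, a core regulator of the cardiac lineage, had 28.6 on its end side, 252 bp downstream of a listed start. Mef2a had 28.6 as its only summit, 193 bp downstream of an inner start. Hand2, needed for the right ventricle, had 26.1 and 9.53, Sox9 had 22.5 and 17.1, and Tbx20, a T-box factor of the chambers, had 13.9, 7.91 and 7.39 beside a companion of 20.2. Zfpm1 had 17.4, Hey1 15.3, Irx5 15.2, Irx3 14.0, Foxc1 8.54 and Irx1 3.01. Inner summits of these genes were thus frequent and mostly weak in rank, and of the 14 host genes with a listed start, Irx2, Mef2a, Meis2, Nkx2-5 and Srf had one there. Gata6, Hey1, Irx1, Irx5, Nfatc1 and Sox9 have no listed start and could not be counted.

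Developmental signalling genes gave a similar picture, with 46 inner summits in 38 of 98 genes and a median score of 9.53. The share of hosts was 38.8% (interval 29.7 to 48.7), against 7.66% of all protein-coding genes. Axin2, a feedback inhibitor of Wnt signalling, had 93.6, Vegfa, the endothelial growth factor, had 58.6, Tgfb2, a ligand of cushion formation, had 48.6, and the Notch ligand Dll1 had 47.8 at 77 bp upstream of an inner start. Histone methylation and Polycomb genes held 20 in 12 of 55 (21.8%), with a median of 31.4. The Polycomb protein Pcgf2 had 88.3, the methyltransferase Kmt2d 78.6, and the demethylases Kdm2b and Kdm7a 66.7 and 62.4. The corepressor complexes NuRD, CoREST and NCoR held 6 in 6 of 27 genes (22.2%), led by Rcor2 of CoREST with 89.9.

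Ribosomal and translation genes held 15 inner summits in 12 of 88 genes (13.6%, interval 7.98 to 22.3, against 7.66% of all protein-coding genes). These summits had a median score of 78.2, against 20.1 over all inner summits. At or above the median of all nuclear summits stood 10 of the 15, against 35.3% of all inner summits. Rpl19 had 158, Rpl38 had 138, Rpl22 had 119 and the cap-binding protein Eif4e had 110. Splicing factors and hnRNPs held 16 in 12 of 58 (20.7%) with a median of 41.1, led by Hnrnpu with 135, Srsf1 with 120, U2af2 with 100.8 and Rbfox2 with 81.9. Cell cycle genes held 11 in 7 of 58 (12.1%, interval 5.97 to 22.9) with a median of 10.5. Of these, cyclin A2, Ccna2, had 157 and Ccnd2 had 44.2. Immediate early and stress genes held 11 in 8 of 41 (19.5%) with a median of 9.09, led by the survival factor Mcl1 with 85.3. Hox and patterning genes held 7 in 6 of 64 (9.38%, interval 4.37 to 19.0) with a median of 9.98. The intervals of the cell cycle and Hox lists include the 7.66% of all protein-coding genes.

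Sarcomere and contraction genes held 14 inner summits in 11 of 43 genes (25.6%, interval 14.9 to 40.2), with a median score of 7.90. Of the 14, 0 stood at or above the median of all nuclear summits, against 35.3% of all inner summits. Mybpc3, myosin-binding protein C, had 23.2, tropomyosin Tpm1 had 20.2 and 14.3, and Nebl had 13.2. Of the markers of other cell types, endothelial genes held 9 in 6 of 26 (23.1%, median 9.27), epicardial, valve and fibroblast genes 8 in 5 of 26 (19.2%, median 11.0) and neuronal genes 8 in 7 of 25 (28.0%, median 15.4), among them Ncam1 with 53.9. Blood markers held none in 30 genes (upper bound 11.4%) and liver and gut markers none in 22 (upper bound 14.9%). Both bounds lie above the 7.66% of all protein-coding genes, so these lists cannot be told apart from that share. Longer genes were hosts more often, from 5.92% of genes of 2000 to 10000 bp to 14.1% of those over 100000 bp. The heart factors had a median length of 10922 bp, the signalling genes 42450 bp and the ribosomal and translation genes 3995.5 bp, against 17217 bp over all genes. The part of gene length in the list shares was not tested.

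**Figure D5:**
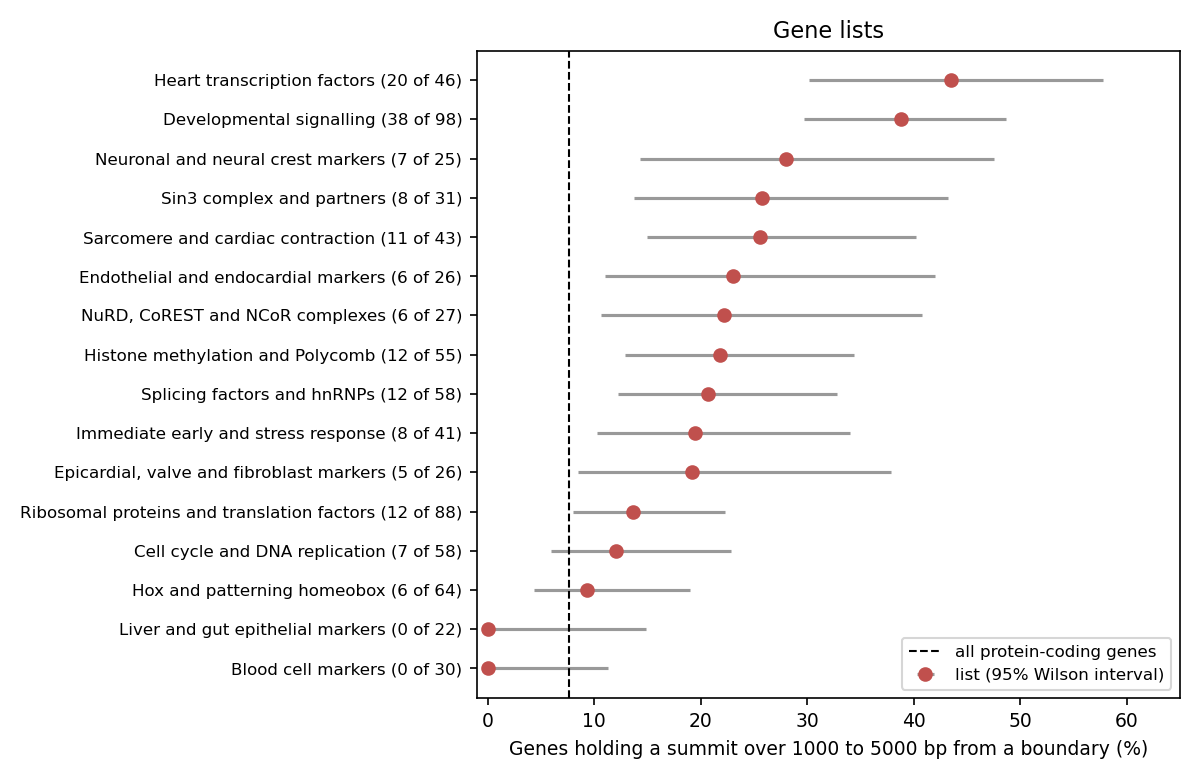
Share of the genes of each list that hold an inner summit (red points, with Wilson 95% intervals and counts beside the names), with all protein-coding genes, 7.66%, as the dashed line. Heart transcription factors (43.5%) and signalling genes (38.8%) stand highest. Blood and liver markers stand at 0, with intervals that reach past the dashed line.

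Several genes carried a run of inner summits. Of the host genes, 1389 held 1, 224 held 2, 43 held 3, 11 held 4 and 2 held 5. Bbc3, which encodes the pro-apoptotic protein Puma, held 5 with scores of 43.6, 37.9, 31.9, 21.3 and 18.9, spread from 1548 to 4497 bp from a boundary. Hic1, a zinc finger repressor, held 5, of which 1 scored 38.4 and the others 7.57, 7.34, 7.33 and 5.90. Sin3a had the highest summed score of the 11 genes with 4, and a further summit of score 31.5 lay 5357 bp inside it. Inner summits of such genes share a locus and are not independent of each other.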

How the data were processed

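Chromatin of E12.5 mouse hearts was sequenced in 1 Sap130 ChIP and 1 input library. The submitters' processing notes name Bowtie 1.1.2, MACS2 2.1.0.20140616 and build GRCm38 (mm10); how they were run is not given in these sources. The authors deposited 1-base summits with a −log10 p or q score, and the values do not settle whether it is p or q. No counts were used, so depth is unknown.

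Genes and 300-base windows (250 before to 50 after a start) came from RefSeq GRCm38.p6. Of 49997 genes, 394 were left out: mitochondrial, on no named chromosome, or starting in the first 3 Mb, other than on Y. Exons and the genome sequence were not used. The table has no windows for chromosome 18, which held 71 inner summits. The host was the containing gene with the nearest boundary of its own. A summit was at a start within 500 bp of it. Window strand was checked by the TATAAA position, 40 to 20 bases before the start in 31.0% of plus and 26.6% of minus windows with these letters. Motif letters were searched on both strands, exactly, with overlaps allowed. The CpG ratio is observed over expected, divided at 0.6.

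Shares carry Wilson 95% intervals and medians order-statistic intervals, for counting error only. Class assignment was tested on simulated data. Named genes were taken from several sets, and not every gene of these sets is named. The sets were the 15 inner summits of highest score, all in the Sin3 list and the 4 highest in each other list. Further sets were the 3 genes with most inner summits (ties by summed score), the 5 highest alone in a gene and the 5 highest with a companion. The last were the 5 highest near a gene of another type and those at each limit. Other genes named were chosen after their values were seen. The members and lists were chosen with earlier results of these data known. Python 3.11.15, numpy 2.4.6, pandas 2.3.3, scipy 1.17.1 and matplotlib 3.10.9 were used. Alternatives changed the limits, score cut, merging, annotation and start reach.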

Additional observations from a re-analysis of the deposited data

How the results depend on the processing

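Of 127 values recomputed under the alternatives, 76 moved by less than their interval or 1.5 times, 51 moved further and 0 changed sign. Only score differences whose main interval excluded 0 could be counted as a change of sign. Counts, shares and medians could not. With a lower limit of 500 bp there were 3628 inner summits (24.4%) in 3051 genes, with a median score of 24.0, 5.11 above deeper summits, 48.2% alone in the gene, 37.9% with a companion and 93.1% on the start side. With a lower limit of 2000 bp there were 836 (5.62%) in 704 genes, with a median score difference of -18.1 from boundary summits, 34.2% alone, 31.9% with a companion, 87.6% on the start side and 51.8% at a start. An upper limit of 2500 bp gave 9.70% of summits, 45.8% with a companion and 92.6% on the start side, and one of 10000 bp gave 16.2%, 38.0% and 89.2%. Among the 7442 summits at or above the median score, 713 (9.58%) were inner, in 679 genes, with a median of 61.5, -4.77 from boundary summits, 78.5% alone, 15% with a companion, 14.0% near a gene of another type, 95.5% on the start side, 71.7% at a start, and 6.71 between those at a start and the others. There, 59 genes had a summit at the inner start only. Among the 3728 at or above the upper quartile, 314 (8.42%) were inner, in 307 genes, with a median of 88.7. Their difference from boundary summits was -2.18 (interval -7.01 to 2.65), and this interval includes 0. Of these inner summits, 91.7% were alone, 4.78% had a companion, 15.3% lay near another type, 95.9% on the start side and 74.5% at a start. The start difference was 5.93 (interval -2.42 to 14.3), and 25 genes had a summit at the inner start only. Merging summits within 500 bp left 40.4% alone. Boundaries of genes of any type left 0.0% near another type, by construction, and 88.2% on the start side. A reach of 250 or 1000 bp put 32.1% or 59.0% at a start. Start reach, the settings for starts and those for genes with 2 starts were chosen after seeing the data. Cuts on the score keep fewer summits, so fewer inner summits, host genes and companions and a higher median score follow by construction. Moved distance limits likewise change the number of inner summits by construction. For the other values the cause was not tested. Heart factor hosts ranged from 1 to 27 genes over the settings and Sin3 hosts from 4 to 11.

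No paired analysis was possible because there was 1 ChIP library and no replicate. The depth of both libraries is unknown, so a gene without a summit was only not called at this depth.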

Other observations

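Inner summits also lay at genes other than protein-coding ones. A boundary of such a gene was within 1000 bp of 236 inner summits (11.7%, interval 10.4 to 13.2), against 13.1% of deeper summits and 14.97% of those near a protein-coding boundary. Of the 236, 197 were nearest to a lncRNA, 22 to a miRNA gene, 6 to a miscellaneous RNA, 5 to a snoRNA and 3 to a tRNA gene. Their median score was 26.0 (interval 21.7 to 32.9), against 19.4 (interval 17.6 to 20.9) for the others. The highest were in Wdr62, Synj1 and Larp4, at 134, 184 and 217 bp from a gene of lncRNA type. A summit of score 87.8 in Tlcd1 lay 1 bp from the boundary of Mir7653, and one of 48.2 in Nrp1, a semaphorin and Vegf receptor, lay 387 bp from Mir1903. In Polg, the mitochondrial DNA polymerase, a summit of 81.5 lay 366 bp from the tRNA gene n-TRtcg5. In the ribosomal gene Rps2, a summit of 78.6 lay 64 bp from Snora78, a guide RNA for ribosomal RNA modification. On the end side of genes, Gpx4, a lipid peroxidase, had a summit of score 99.0 that lay 62 bp upstream of a start 6845 bp inside, and Anapc15, a subunit of the anaphase-promoting complex, had one of 93.4 at 199 bp downstream of a start 15031 bp inside. Prr7 and Btbd19, with 97.4 and 113, had summits 7547 and 4710 bp from their nearest listed start. By chromosome, the share of summits that were inner ran from 11.4% on chromosome 6 to 17.1% on chromosome 18.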
